A study of Mus musculus with 36 samples.

Results

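Simple repeat families are the tandem arrays of a short DNA unit, and here they were the repeat families whose class in the count table was Simple_repeat. There were 315 of them among 1561 repeat families, each named by its unit, such as (CA)n for the unit CA, and each pooling the reads of every annotated copy in the mouse genome, so that a family has no single position and the positions of its copies were not analysed here. The unit had 1 base in 4 families, 2 bases in 6, 3 bases in 20, 4 bases in 59, 5 bases in 194 and 6 bases in 32. Total RNA was measured in 36 libraries of mouse embryonic fibroblasts (MEF) from 2 lines. Both lines carried a guide RNA against the major satellite repeat (MSR), which was expressed at all times, and a doxycycline-inducible dCas9, a Cas9 that binds DNA without cutting it. In MSR-dCas9-Control cells dCas9 carried no effector, and in MSR-dCas9-Activator cells it was fused to the transcriptional activator VPR. Each line was sampled uninduced, induced with 10 ng/ml doxycycline, and 3 h, 6 h, 12 h and 24 h after doxycycline had been removed, with 3 biological replicates in each of the 12 groups. Induction lasted 24 h in the Control line and 6 h in the Activator line, so effector and length of exposure cannot be told apart in any comparison of induced lines. Both lines were mixed populations selected with hygromycin after PiggyBac transposition, not single clones. The questions were which simple repeats differed between the lines at each stage, and whether their differences followed unit length or GC content.

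Simple repeats, or microsatellites, arise and change length when DNA polymerase slips during replication, and mismatch repair proteins act on the loops that slippage leaves. They lie throughout introns and intergenic DNA, so a total RNA library reads them largely from within longer transcripts, and a tandem unit of the telomere is also transcribed as a long noncoding RNA from chromosome ends. Several RNA-binding proteins recognise such units, among them the MBNL proteins on CUG repeats and TDP-43, encoded by Tardbp, on UG repeats.

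Units of 2 pairs of families are written out here, as 4 tandem copies of a unit of 5 bases and 8 copies of a unit of 2 bases. They are read 5′ to 3′ with the first copy in capitals. The names of a pair are reverse complements, that is, the same double-stranded sequence read from opposite strands. Each family pools the annotated copies listed under its name, and whether a pair shares copies was not analysed here. The first pair is a family first called higher after doxycycline removal with its complement, and the other is the most abundant pair of families of all.

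Family (CTGTG)n: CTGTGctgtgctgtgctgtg

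Family (CACAG)n: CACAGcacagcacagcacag

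Family (CA)n: CAcacacacacacaca

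Family (TG)n: TGtgtgtgtgtgtgtg

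Across the 36 libraries, genes held 27376846 to 57371803 counts and repeat families 7369635 to 16752224. Simple repeats held 452504 to 934934 counts, which was 3.66% to 6.78% of the repeat counts of a library. The MEF label was checked against marker genes: Col1a1, Col1a2, Col3a1, Vim and Fn1 were high in every library, with Col1a1 at no less than 2720 CPM (counts per 1000000 gene counts), while Thy1, also used as a fibroblast marker, did not exceed 0.207 CPM. The epithelial marker Epcam, the erythroid Hba-a1 and the neuronal Map2 had medians of 0, whereas Tubb3 lay between 3.22 and 35.4 and Pecam1 reached 32.4 CPM. GSAT_MM, the MSR family that the guide targets, held 1423 to 1562 scaled counts in the uninduced Control and 2234 to 4233 in the uninduced Activator libraries, a log2 difference of 1.20 (adjusted p = 1, edgeR). It held 1318 to 1404 scaled counts in the induced Control libraries and 99120 to 1059658 in the induced Activator libraries, a log2 fold change of 7.92 (SE 0.84, adjusted p = 6.51e-08, edgeR quasi-likelihood test). A scaled count is the count divided by the library's effective gene total, so it does not move with the repeats themselves, and is set to a library of 42252560 gene counts.

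Counts were concentrated in a few families. (TG)n and (CA)n together held 33.31% of all simple repeat counts, and the 10 most abundant families held 54.9%. After these dinucleotides came (A)n with a mean of 27312 scaled counts, (T)n with 22738, (TTTG)n with 19387, (TA)n with 19149, (CAAA)n with 18314, (GA)n with 17421, (TC)n with 16644 and (TTTTG)n with 14244. At the other end, 1 family had no count in any library and 33 families were too low to be tested, with at most 158 counts in all 36 libraries together. The 282 families that were tested included 9 that would not have passed the same filter in the Control libraries alone. These 9 were tested only because of their Activator libraries, and 2 of them were called higher when induced and 5 at 24 h. Values are sums over a family's copies and not per length, so this order is one of summed counts and not of level per base.

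Summed over all 315 families, simple repeat counts relative to gene counts were lower in induced Activator than in induced Control cells. They overlapped the Control values again from 6 h after removal. The uninduced Activator libraries held 16966 ± 1713 simple repeat counts per 1000000 effective gene counts (SD, n = 3) and the uninduced Control libraries 16734 ± 834. The induced Activator libraries held 13550 ± 1000, from 12440 to 14382, against 17125 ± 2128 in the Control line, from 14685 to 18594. These ranges did not overlap. At 3 h the sums were 13403 ± 1649 and 16794 ± 1146, again with no overlap. Activator and Control libraries then held 16619 ± 2044 and 18516 ± 943 at 6 h, 18724 ± 919 and 17670 ± 515 after 12 h, and 19579 ± 1268 and 18601 ± 701 after 24 h. The ranges overlapped at each of these 3 stages. The sums are relative to gene counts, so they do not give an amount of RNA per cell. In these bulk libraries, a change in some cells and a smaller change in all cells cannot be told apart.

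**Figure D1:**
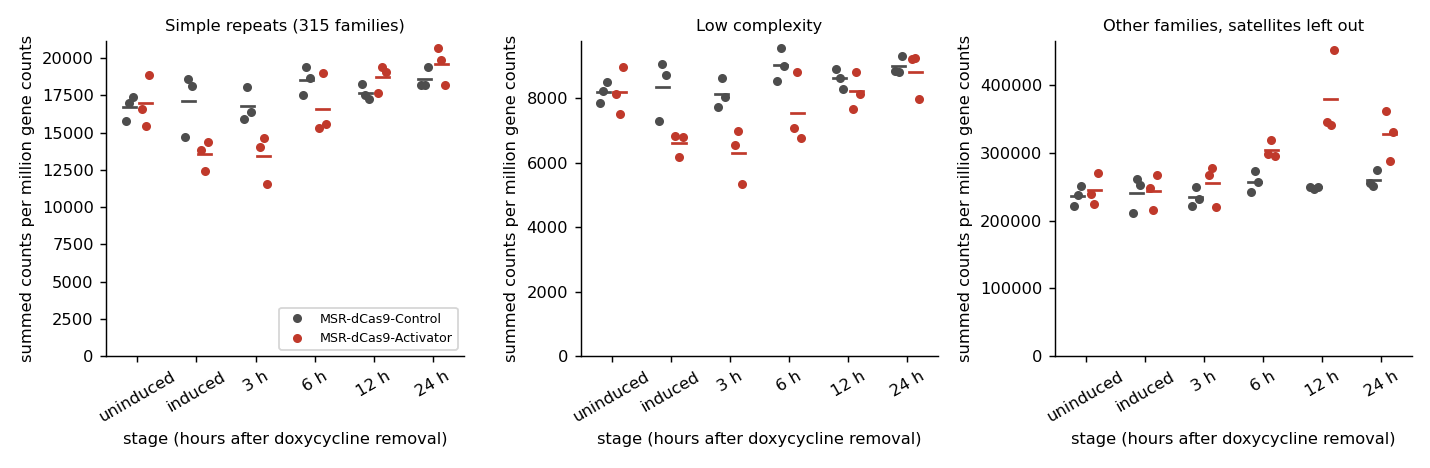
Summed counts per 1000000 effective gene counts (vertical axes, from 0) in each library at each stage, with points for libraries and short lines for the means of 3 replicates; MSR-dCas9-Control is grey and MSR-dCas9-Activator red. Simple repeats (left) were at 12440 to 14382 in the induced Activator libraries and at 14685 to 18594 in the induced Control libraries; low complexity families (middle) and the remaining families without satellites (right) are plotted on their own scales.

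The 10 low complexity families, which are biased in base composition without a fixed unit, were lower in the induced Activator libraries as well, with 6609 ± 361, from 6192 to 6828, against 8363 ± 942, from 7292 to 9064, in the Control line. None of the 10 was called, and all 10 fitted differences were negative. With satellites and simple repeats left out, the other families stood at 243477 ± 25700 against 241171 ± 26790 when induced, and at 379558 ± 62970 against 248965 ± 1707 at 12 h. The share of simple repeats among repeat counts therefore depends on the other families, and all values that follow were scaled by genes.

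Of the 282 simple repeats tested, 12 were called higher and 72 lower in the Activator than in the Control line when induced. A family was called at an adjusted p under 0.05 and an absolute log2 fold change over 0.5. With mitochondrially encoded mRNAs setting the scale the calls were 8 higher and 169 lower, and in fits of only the groups compared 6 higher and 27 lower. Together the 12 and 72 were 29.8% of the simple repeats, against 32.5% called among all 1492 repeat families tested. By direction, 4.26% of the simple repeats were called higher and 25.5% lower, against 20.2% and 12.3% of all families. The fitted log2 fold change was negative in 80.5% of the simple repeats, with a median of -0.33, against a median of 0.12 for the 1210 other families. Among these others, DNA transposon families had a median of -0.29 with 23.2% called lower, and SINE families -0.26 with 5.41%. The 662 LTR families had a median of 0.28 with 33.5% called higher, and LINE families a median of -0.05. Lower fitted values were thus not particular to simple repeats. The calls lower ranged from -0.51 to -1.87 among the 44 families with a mean of at least 100 scaled counts in the 6 libraries compared, and 28 more lay below that mean. Before induction 0 simple repeats were called, against 0.067% of all repeat families, with 8 simple repeats at an unadjusted p under 0.05, and DESeq2 also called 0.

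With gene scaling, lower calls were most frequent 3 h after doxycycline removal and then fell at each stage, while higher calls rose up to 12 h. The higher calls include (AGTTG)n, which is among the 9 families tested only because of their Activator libraries. How many of these 9 were called higher at 3 h, 6 h and 12 h was not counted. At 3 h, 19 simple repeats were called higher and 86 lower, when 46.8% of all repeat families were called, 31% higher and 15.8% lower. The simple repeats called 6 h after removal were 29 higher and 56 lower, with 45.6% of all families called, 34.4% higher and 11.2% lower. After 12 h the split had turned to 43 higher and 26 lower, with 51.1% of all families called, 45.4% higher and 5.76% lower. After 24 h it was 28 higher and 9 lower, with 31.3% of all families called, 29% higher and 2.28% lower. Over these 4 stages the simple repeats had medians of -0.32, -0.20, 0.04 and 0.04 on the log2 scale, whereas the other families had medians of 0.26, 0.32, 0.56 and 0.31. Of the 72 families lower on induction, 56, 43, 22 and 6 were also called lower at the successive stages after removal. Of the 12 higher on induction, 7 were also called higher at 24 h. How many of all repeat families kept their call from induction to each later stage was not counted. These stages share no libraries, and each was compared with Control libraries of the same stage. All came from the same fit, with a shared estimate of spread and shared replicate terms.

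The balance of calls at the later stages depended on what the libraries were scaled by. For 12 h, the split of 43 higher and 26 lower became 66 and 19 with DESeq2 size factors, 35 and 38 without TMM factors, 21 and 128 when the other repeat families set the scale, and 11 and 149 when the mitochondrially encoded mRNAs set it. For 24 h, 28 and 9 became 35 and 4, 28 and 7, 18 and 48, and 14 and 14 in that order. The split of 19 and 86 for 3 h became 24 and 55, 15 and 111, 13 and 153, and 10 and 201. That of 29 and 56 for 6 h became 38 and 35, 23 and 79, 20 and 134, and 10 and 201. The mitochondrial mRNAs themselves were 1.45% to 2.56% of gene counts in the Control libraries and 1.97% to 3.6% in the Activator libraries from induction onwards. In the induced comparison, scaling by these mRNAs moved the median over all genes from 0.10 to -0.27 on the log2 scale and that of the simple repeats from -0.33 to -0.69. Relative to the median gene, simple repeats lay at -0.42 in both cases, and between -0.43 and -0.41 under each other scaling that was tried. The DESeq2 fit, which used the same size factors as the edgeR fit with DESeq2 size factors, also gave -0.43. A change of scaling moves genes and repeats by nearly the same amount, so this difference could hardly vary with it. Fits of only the groups compared gave -0.33, and fits without the filter on low counts -0.38.

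**Figure D2:**
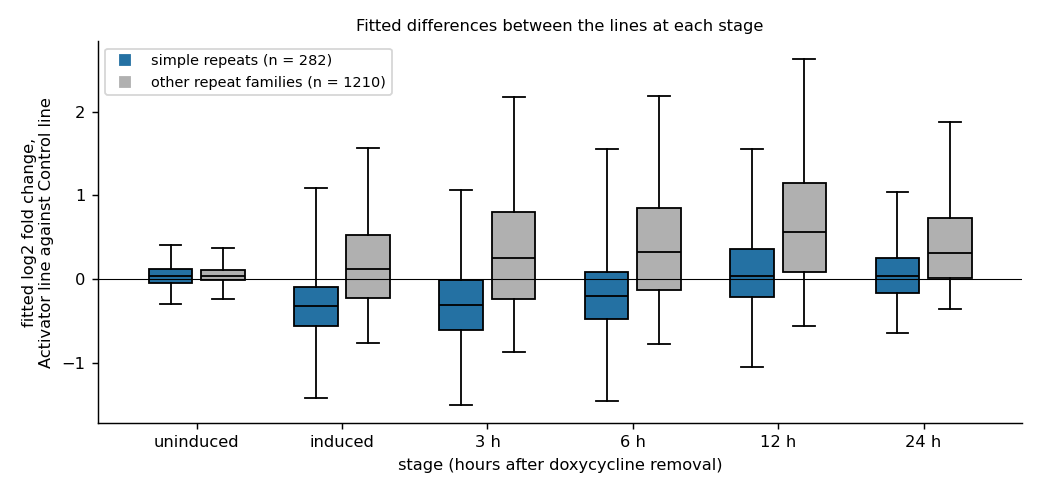
Fitted log2 fold change of the Activator against the Control line (vertical axis) at each stage (horizontal axis), for 282 simple repeats (blue) and 1210 other repeat families (grey); boxes span the quartiles with the median as a line, and whiskers run from the 5th to the 95th percentile. The median of the simple repeats was 0.03 uninduced, -0.33 induced and 0.04 at 24 h, and that of the other families was 0.12 induced and 0.31 at 24 h.

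Simple repeats were called on induction in the Activator line, while 0 were called in the Control line. Induced against uninduced Activator libraries gave 15 families higher and 65 lower, with 32% of all repeat families called, 19.6% higher and 12.4% lower. The same contrast in the Control line gave 0 of 282, with 0% of all families called, 6 simple repeats at an unadjusted p under 0.05 and 0 calls by DESeq2. The difference between these 2 changes was tested as an interaction, and 5 simple repeats changed more upwards and 60 more downwards in the Activator line, with 21.6% of all families called, 11.8% upwards and 9.85% downwards. From induction to 24 h the direction turned: 30 families rose more in the Activator line and 2 fell more, with 6.7% of all families called, 6.43% upwards and 0.268% downwards. Without the third uninduced Activator replicate, the count for the Activator line dropped from 80 to 52 and that for the difference on induction from 65 to 34. Without the first Control replicate at 24 h, the count from induction to 24 h dropped from 32 to 20, and without the first induced Control replicate it rose to 55.

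(CAGGG)n showed the largest rise of any simple repeat with a mean of at least 100 scaled counts. In the 18 Control libraries and the 3 uninduced Activator libraries it held 308 to 506 scaled counts. In the Activator line it held 2677, 1876 and 3848 when induced, 4360, 4561 and 5211 after 3 h without doxycycline, and 8423, 8471 and 10841 after 6 h. The increase went on after doxycycline had been removed, to 15832, 14757 and 17830 after 12 h, and the last libraries, from 24 h, held 16460, 6457 and 14334. Every Activator library from induction onwards therefore lay above every other library. The fitted log2 fold change was 2.85 when induced (SE 0.22, adjusted p = 3.5e-11), then 3.69, 4.55 and 5.41 at the stages up to 12 h, and 4.90 after 24 h (edgeR).

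Its reverse complement (CCCTG)n did not move with it. (CCCTG)n held 222.5, 238 and 284 scaled counts in the induced Activator libraries and 244, 319 and 367 in the induced Control libraries, with a log2 fold change of -0.30 (SE 0.17, adjusted p = 0.12, edgeR). At 24 h the difference was 0.16 (adjusted p = 0.45, edgeR). Within a library, (CAGGG)n stood at 1.24 ± 0.03 times its complement in the induced Control cells (SD, n = 3) and at 11.2 ± 2.95 times in the induced Activator cells. The ratio reached 48.9 ± 10.0 at 12 h in the Activator line, against 1.28 ± 0.09 in the Control line. A ratio within a library does not depend on the scaling. GSAT_MM was high in the same libraries, and its part in the rise of (CAGGG)n was not tested. Which copies of (CAGGG)n gave the reads was not analysed here.

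(GTATG)n and (CTTTG)n were the other 2 families at that abundance that were called higher on induction. (GTATG)n held 260, 109 and 246 scaled counts in the induced Activator libraries against 81 to 102 in the induced Control libraries, a log2 fold change of 1.14 (SE 0.21, adjusted p = 3.9e-06, edgeR). (CTTTG)n held 434, 322 and 433 against 201, 284 and 266, a log2 fold change of 0.68 (SE 0.17, adjusted p = 0.00055). For both the groups did not overlap, which was not counted over all repeat families. Neither complement was called when induced, with (CATAC)n at -0.17 and (CAAAG)n at 0.16 on the log2 scale. The call of (CTTTG)n was lost under mitochondrial scaling, at 0.32.

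The 5 largest falls on induction at that abundance lay between -0.92 and -1.87 on the log2 scale. The largest was that of (CATCC)n, which held 75, 133 and 84.3 scaled counts in the induced Activator libraries and 327, 395 and 325 in the Control libraries, a log2 fold change of -1.87 (SE 0.21, adjusted p = 2e-11, edgeR). It was lowest at 3 h, with 53.4, 99.8 and 48.4, and at 24 h its values of 222, 328 and 257 overlapped the 292 to 411 of the Control libraries. So the fall was large and had faded by 24 h, where the log2 fold change was -0.32 (adjusted p = 0.19, edgeR). Its complement (GGATG)n fell too, with 55.2, 75.8 and 94.6 against 132 to 149, a log2 fold change of -0.92 (adjusted p = 0.00031). Unlike the (CAGGG)n pair, both families of this pair were thus called in the same direction.

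(AGGTG)n held 75, 102 and 85.1 scaled counts in the induced Activator libraries and 165, 189 and 239 in the Control libraries, a log2 fold change of -1.17 (adjusted p = 5.8e-07, edgeR). It too came back, to 222, 206 and 198 at 24 h, where Control libraries held 176 to 202. (TTCTG)n held 108, 112 and 128 against 181, 255 and 241, a log2 fold change of -0.94 (adjusted p = 2.2e-05), and remained lower at 24 h with -0.71 (adjusted p = 0.00093). The complements of (AGGTG)n and (TTCTG)n were not called when induced, with (CACCT)n at 0.009 and (CAGAA)n at -0.23 on the log2 scale. (TCCCC)n held 784, 865 and 879 against 1682, 1621 and 1479, a log2 fold change of -0.93 (adjusted p = 5.7e-08). At 24 h (TCCCC)n no longer passed the test, with -0.21 (adjusted p = 0.24). Its complement (GGGGA)n fell by 0.55 on the log2 scale when induced (adjusted p = 0.00062, edgeR), and that call was lost without the first induced Control replicate, at -0.49, and without the second induced Activator replicate, at -0.46.

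**Figure D3:**
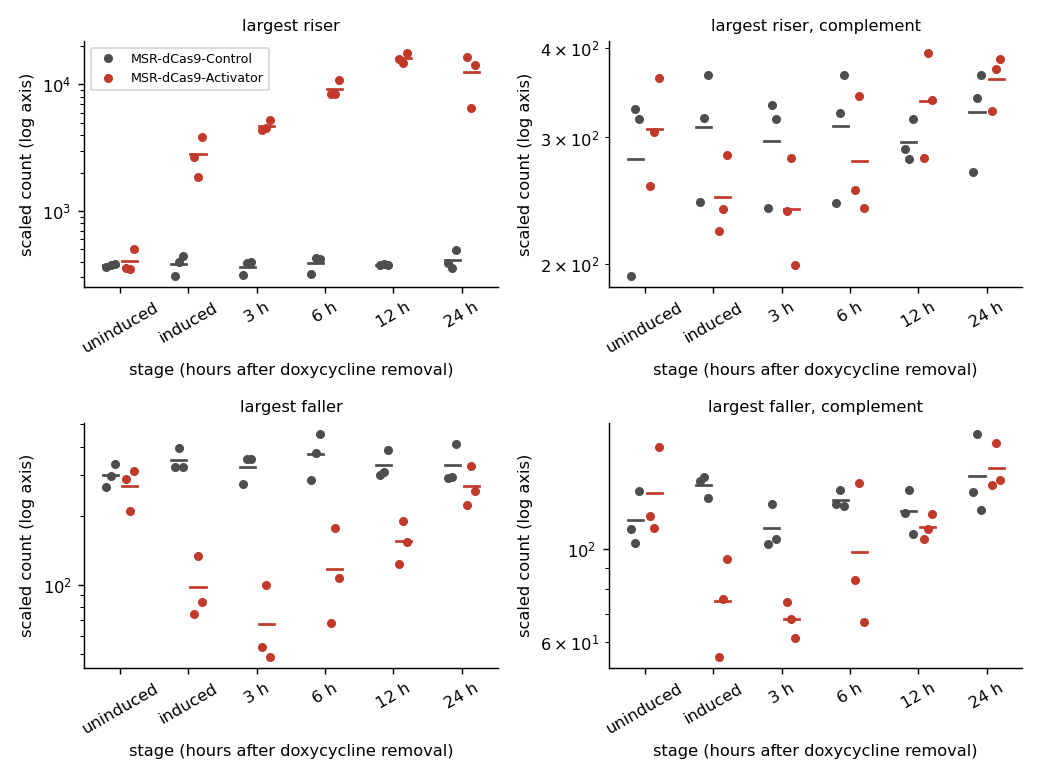
Scaled counts (vertical axes, logarithmic) of (CAGGG)n and (CATCC)n, the largest rise and fall on induction among families with a mean of at least 100 scaled counts (left column), and of their reverse complements (CCCTG)n and (GGATG)n (right column), by stage; points are libraries, short lines are means of 3 replicates, Control is grey and Activator red. (CAGGG)n stayed between 308 and 506 in the Control line and the uninduced Activator libraries and reached 17830 at 12 h, whereas (CCCTG)n lay between 193 and 394 in all 36 libraries.

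Some simple repeats were called in the same direction at all 5 stages from induction onwards: 6 were higher and 5 lower, where 17.4% of all repeat families tested were called higher at each of these stages and 1.47% lower. Those higher were (CAGGG)n with a log2 fold change of 2.85 when induced, (GGTTG)n with 2.21, (GCATG)n with 1.55, (GACTG)n with 1.29, (GTATG)n with 1.14 and (AGTTG)n with 3.46. Of these, (AGTTG)n was tested only because of its Activator libraries, so its calls are a description. Those lower were (CTAAT)n with -2.33, (CACTC)n with -1.61, (CTATG)n with -1.06, (TTCTG)n with -0.94 and (CATCT)n with -0.63. The 6 higher were also called at each stage with DESeq2, with DESeq2 size factors and without the replicate term. Of the 5 lower, only (CACTC)n and (TTCTG)n were called at each stage in these settings. Both DESeq2 settings used the same size factors. (AGTTG)n entered these fits through its Activator libraries too, so its calls in them are again a description. The calls at 24 h of all 5 lower families but (TTCTG)n were lost without Control replicate 1, Activator replicate 1 or Activator replicate 3 of that stage, which left 1 family lower at all 5 stages. In fits of only the groups compared, 3 were higher and 2 lower. When the other repeat families set the scale, 5 were higher and 33 lower, and with mitochondrially encoded mRNAs setting it, 5 and 11. (GTATG)n was not among those higher at all 5 stages in any of these settings. Apart from the families described above, the 6 higher and 5 lower families were singled out after their values had been seen. The last call of (GTATG)n, 0.54 at 24 h (adjusted p = 0.031, edgeR), was lost without replicate 1 or replicate 2 of the Control line, at 0.53 and 0.50, without replicate 1 of the Activator line, at 0.36, and when the other repeat families set the scale, at 0.25. All 11 have units of 5 bases, as do 162 of the 282 families tested.

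(AGTTG)n was close to absent outside the induced Activator line, and it is one of the 9 families that were tested only because of their Activator libraries, so its values are given as a description. It had at most 4 counts, or 3.17 scaled counts, in any of the 18 Control and 3 uninduced Activator libraries. In the Activator line it held 31.3, 11 and 25.8 scaled counts when induced, 62.5, 38 and 44.1 after 3 h without doxycycline, 60, 29.4 and 52.8 after 6 h, and 61.9, 34.7 and 43.7 after 12 h. At 6 h and 12 h all Control libraries were at 0 counts, and with a floor of 3 counts in each library the Activator line was at least 14.3-fold and at least 16.1-fold higher. At 24 h the values were 34, 1.91 and 17.7, so the second replicate had come down to the level of the other libraries. At 0 counts, this depth allows up to 3 counts in a library.

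The same replicate was lowest at 24 h in the other families of that kind. The lowest value of (GGTTG)n was shared by 2 replicates. (GCATG)n held 9.95 to 36.5 scaled counts in the 21 Control and uninduced Activator libraries, 145, 143 and 149 in the Activator line at 12 h, and 132, 64.1 and 114 at 24 h. (GACTG)n held 6.24 to 31 in those 21 libraries, 86.3, 77 and 80.1 at 12 h, and 73.4, 25.8 and 67.3 at 24 h. (CAGGG)n, with 6457 in the second replicate, had a log2 fold change at 24 h of 5.20 without it. (GGTTG)n held 11.9 to 37 in the 21 libraries and 124, 61.5 and 146 when induced, and 120, 72.7 and 72.8 at 24 h.

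Of the families called lower throughout, (CTAAT)n had the largest fall. It held 91.3 to 162 scaled counts in the 21 Control and uninduced Activator libraries, and 24.7, 46.1 and 18.1 in the induced Activator libraries, a log2 fold change of -2.33 (SE 0.26, adjusted p = 2.5e-13, edgeR). At 24 h its values were 69.1, 159 and 58.5, a log2 fold change of -0.54 (adjusted p = 0.048, edgeR), with the second replicate inside the Control range. (CACTC)n held 69.1 to 136 in the 21 libraries, 30.5, 39.6 and 26.7 when induced and 58.5, 76.5 and 56.3 at 24 h.

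At 24 h after doxycycline removal the largest rises at a mean of at least 100 scaled counts were those of (CAGGG)n, described above, and then of (CAGAC)n and, the larger, (CTGTG)n. The latter did not differ detectably when induced, with 516, 457 and 625 scaled counts against 486, 587 and 492 (log2 fold change 0.02, adjusted p = 0.93, edgeR). It then rose in the Activator line to 801, 721 and 666 scaled counts within 3 h of removal, then to 1186, 1099 and 1321 by 6 h and to 1708, 1328 and 1887 by 12 h, while the Control libraries at these stages held 443 to 601. At 24 h it held 1912, 937 and 1497 against 536, 593 and 588, a log2 fold change of 1.33 (SE 0.16, adjusted p = 6.2e-11, edgeR). Its complement (CACAG)n held 726, 691 and 714 against 698, 723 and 727 at that stage, with a log2 fold change of -0.01 (adjusted p = 0.96).

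(CAGAC)n held 197, 105 and 140 scaled counts at 24 h against 60.7, 76.2 and 80.6, a log2 fold change of 1.02 (SE 0.23, adjusted p = 0.00012, edgeR), and its complement (GTCTG)n was at -0.14 (adjusted p = 0.65). The call of (CAGAC)n was lost under mitochondrial scaling. The 3 largest falls at 24 h were smaller. (TTCTG)n held 147, 226 and 146 against 243, 282 and 314. (TTGGGG)n held 152, 142 and 87.2 against 165, 209 and 210 (log2 fold change -0.61, adjusted p = 0.014, edgeR), and (CCTTG)n 79.7, 93.7 and 81.7 against 110, 113 and 160 (-0.60, adjusted p = 0.025). All 3 were called lower, as were 2.28% of all repeat families. For each of them the groups did not overlap, which was not counted over all repeat families. The falls of (TTGGGG)n and (CCTTG)n were lost when 1 library was left out: (TTGGGG)n without Control replicate 2 or 3 or Activator replicate 3, at -0.52, -0.54 and -0.39, and (CCTTG)n without Control replicate 1 or 3 or Activator replicate 2 or 3, at -0.58, -0.43, -0.57 and -0.54. (TTGGGG)n was also called lower when induced, at -0.68 (adjusted p = 0.0052), which rested on the first induced Control replicate at 438 scaled counts beside 185 and 204. Without that library the value was -0.19, and without Activator replicate 1 it was -0.45 and no longer called.

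Most simple repeats are listed beside a family named by the reverse complement, so the families of a pair can be compared. A reverse complement was listed for 306 of the 315 families, and 7 more were their own complement. The 315 names came down to 162 distinct units once complements were merged. For 127 pairs both names were tested. Levels of the names of a pair followed each other, with r = 0.957 between log2 means over the 127 pairs, and 101 pairs lay within 2-fold. All 37 pairs in which both names had at least 1000 scaled counts lay within 2-fold, (CA)n at 0.99 times (TG)n and (A)n at 1.20 times (T)n. Pairs share libraries and base composition, so these correlations are descriptions.

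Fitted differences between the lines followed each other much less. When induced, r between the log2 fold changes of the names of a pair was 0.08 over all 127 pairs and 0.62 over the 37 abundant pairs. In 13 pairs both names were called lower, in 32 only 1 name was called lower, in 9 only 1 was called higher and in 2 pairs the calls were opposite. At 24 h r was 0.18 and 0.56, with 2 pairs called higher on both names, 22 higher on 1 name and 9 lower on 1 name. Among the abundant pairs the median size of the difference between the names was 0.10 on the log2 scale when induced, and the largest was 0.46, in (CAGAGA)n at 0.17 and (TCTCTG)n at -0.30. The strand setting of the counting was not given in the sources used here, so the names of a pair cannot be assigned to sense and antisense RNA.

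**Figure D4:**
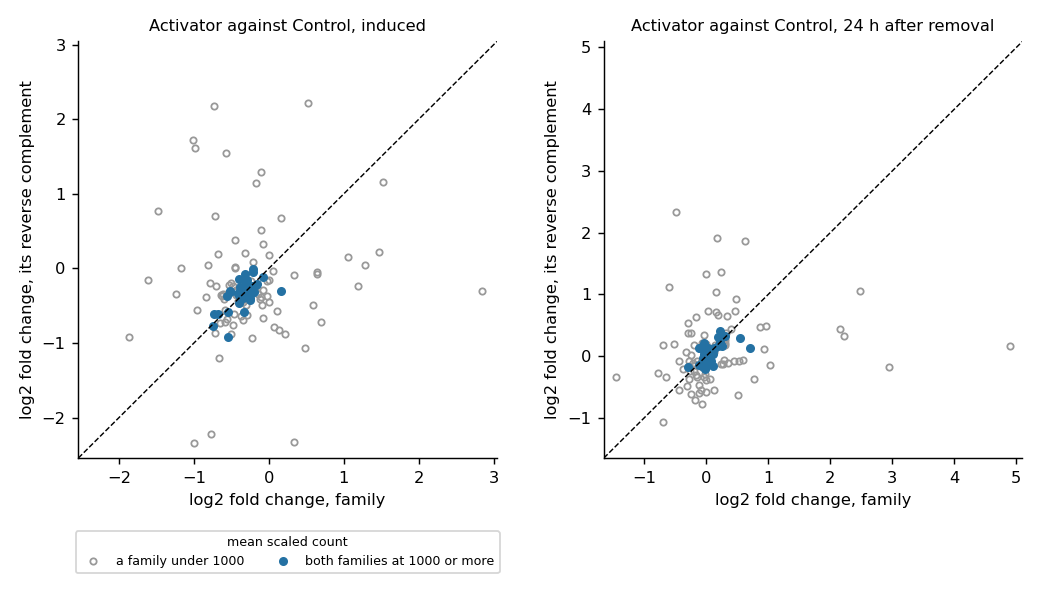
Fitted log2 fold change of a family (horizontal axis) against that of its reverse complement (vertical axis) for 127 pairs, induced (left) and 24 h after removal (right); filled points are the 37 pairs in which both names had a mean of at least 1000 scaled counts, and the dashed line marks equal values. Abundant pairs lay near the line, with r of 0.62 and 0.56, and the point far to the right at 24 h is (CAGGG)n at 4.90 with its complement at 0.16.

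The most abundant families, with units of 1 or 2 bases, were all lower in fitted value when induced, and most did not reach the limit of 0.5. (TG)n held 96525, 89360 and 101940 scaled counts in the induced Activator libraries against 105642, 129190 and 130309 in the Control libraries, a log2 fold change of -0.34 (SE 0.12, adjusted p = 0.015, edgeR). (CA)n was at -0.41 (adjusted p = 0.0033), with 93534, 87448 and 97901 against 106599, 132330 and 132688. Neither passed that limit, although their groups did not overlap, which was not counted over all repeat families. (A)n at -0.25, (T)n at -0.40, (GA)n at -0.27, (TC)n at -0.31 and (TA)n at -0.36 lay on the same side when induced and did not pass it either. At 24 h the 7 families lay between -0.10 and 0.14.

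The families with units of 1 or 2 bases made of G and C alone had larger falls. (G)n held 588, 650 and 679 scaled counts in the induced Activator libraries against 974, 1070 and 1131, a log2 fold change of -0.73 (SE 0.14, adjusted p = 1.3e-05, edgeR). (C)n held 696, 672 and 787 against 1097, 1229 and 1066, a log2 fold change of -0.65 (adjusted p = 8.4e-05). (CG)n, the unit that is a tandem of the methylated dinucleotide of mammalian DNA, held 153, 149 and 202 against 195, 269 and 269, at -0.53 (adjusted p = 0.011), and this call was lost with DESeq2, at -0.44, and without Control replicate 2 or Activator replicate 2, at -0.48 and -0.41. At 24 h none of these 3 was called, with (G)n at -0.18, (C)n at -0.06 and (CG)n at 0.19.

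Among trinucleotides whose expansions are known from human neurological disease, (CAG)n and (CTG)n were at -0.36 and (GAA)n and (TTC)n at -0.22 and -0.01 when induced, and none was called at that stage. (GAA)n and (TTC)n were at 0.35 and 0.48 at 12 h (adjusted p = 0.0195 and 0.0013, edgeR), under the limit of 0.5. (CGG)n was called higher from 3 h onwards, with 0.93 at 24 h (SE 0.16, adjusted p = 7e-07, edgeR). Its values split by replicate number more than by line, with 135, 263 and 588 scaled counts in the Control and 316, 553 and 872 in the Activator libraries at 24 h, so the call rested on the replicate term in the fit. Without that term it was 0.82 at 24 h (adjusted p = 0.35) and 0.59 at 12 h (adjusted p = 0.46). The call at 12 h was also lost when the other repeat families or the mitochondrial mRNAs set the scale, at 0.16 and 0.06. Its complement (CCG)n, with the same split by number, was at 0.48 at 24 h (adjusted p = 0.019) and was not called.

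The telomere unit rose after doxycycline removal. (TTAGGG)n held 411, 314 and 473 scaled counts in the induced Activator libraries against 396, 496 and 433 in the Control libraries, a log2 fold change of -0.15 (adjusted p = 0.42, edgeR). At 6 h (TTAGGG)n held 659, 676 and 659 scaled counts in the Activator line against 372, 485 and 520 in the Control line. At 12 h it held 842, 750 and 998 against 457, 460 and 435, a log2 fold change of 0.93 (SE 0.15, adjusted p = 5e-08, edgeR). At 24 h it held 943, 631 and 807 against 449, 502 and 502, a log2 fold change of 0.71 (adjusted p = 4.5e-05, edgeR). No value of the Activator line overlapped the Control values at 6 h, 12 h or 24 h, which was not counted over all repeat families. At 12 h 45.4% of all repeat families and 15.2% of the simple repeats were called higher, and at 24 h 29% and 9.93%. The median log2 fold change at 12 h was 0.56 in the other repeat families and 0.04 in the simple repeats. (CCCTAA)n held 663, 714 and 784 against 527, 540 and 516 at 12 h, at 0.45 (adjusted p = 0.006), below the limit, and was at 0.16 at 24 h. The rise of (TTAGGG)n stayed positive but was not called when scaled by the other repeat families (0.40 at 12 h and 0.41 at 24 h) or by mitochondrial mRNAs (0.27 and 0.45). Counts of this family include interstitial copies of the unit, so they are not a measure of telomeric RNA alone.

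GC content of the unit was weakly related to the differences between lines. When induced, Spearman's rho between GC content and log2 fold change was -0.08 over 282 families and -0.23 over the 168 with a mean of at least 100 scaled counts. The share of families called lower was 12.5% of the 16 without G or C, 16% of the 50 with up to 25% GC, 21.5% of 93 with more than 25% and up to 50%, 35.1% of 77 with up to 75%, and 32.6% of the 46 above 75%. The medians of these classes were -0.31, -0.32, -0.26, -0.42 and -0.33, all on the same side. At 24 h rho was 0.12 over all 282 and 0.04 over the 168, and the median was highest in the class above 75% GC, at 0.18. Families share libraries, and many are complements of each other, so no test was made across them.

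The libraries themselves varied with GC content inside groups, and between groups in which no family was called. For each library, the deviation of the 168 families from their group mean was set against GC content, and rho ran from -0.55 to 0.56 over the 36 libraries. The third replicate had the highest value in 11 of 12 groups and the first the lowest in 9. The exception was the induced Control group, in which the first replicate stood at 0.42. In the Control line, in which 0 families were called on induction, rho between GC content and the change on induction was 0.26 over 282 families and 0.58 over the 168, with medians of -0.03 in families without G or C and 0.14 above 75% GC. Between the uninduced lines, also with 0 calls, rho was 0.18 and 0.36. For the change on induction in the Activator line beyond that in the Control line, rho was -0.16 and -0.37. The part of this variation between libraries in the higher share of GC-rich families called lower was not tested.

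**Figure D5:**
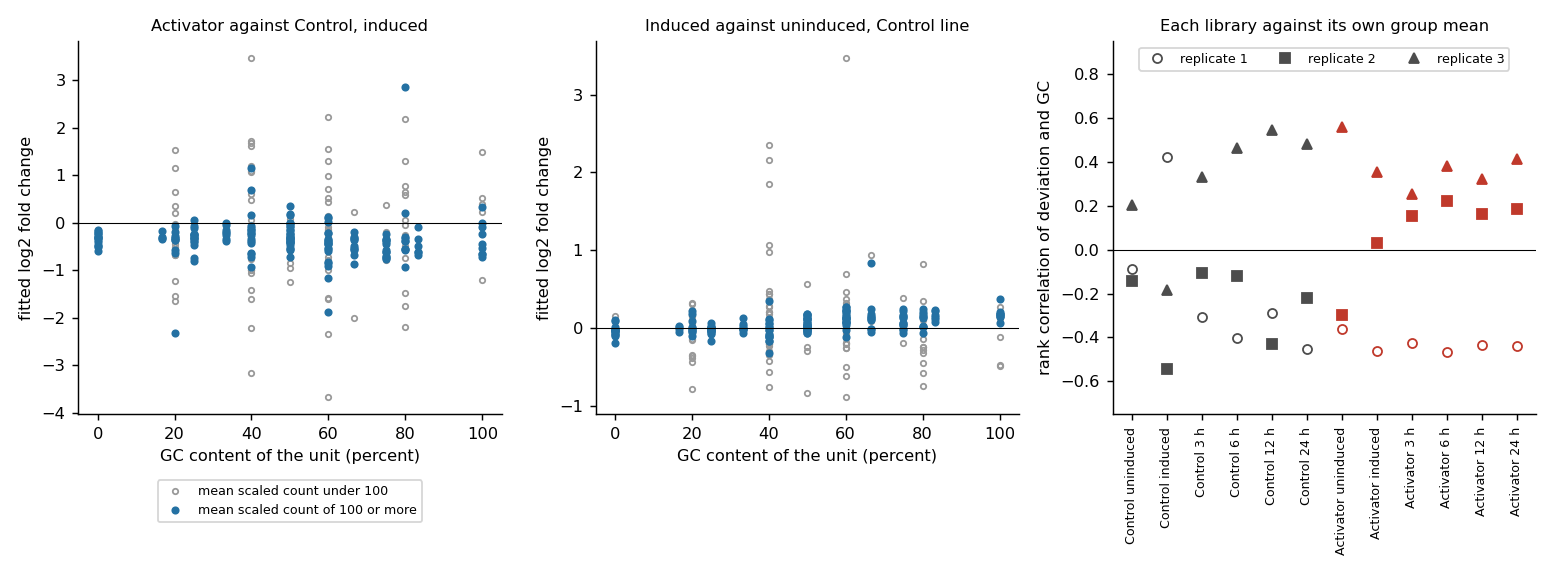
GC content of the unit in percent (horizontal axis) against the fitted log2 fold change for 282 families, in Activator against Control when induced (left) and in the Control line on induction (middle); filled points have a mean of at least 100 scaled counts. The right panel gives for each library the rank correlation between GC content and its deviation from its own group mean, from -0.55 to 0.56, with the third replicate (triangles) highest in 11 of 12 groups.

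Unit length was weakly related to the differences as well. When induced, rho between unit length and log2 fold change was 0.06 over both the 282 and the 168 families, and at 24 h it was -0.05 and -0.0020. The medians for units of 1 to 6 bases were -0.53, -0.35, -0.34, -0.37, -0.29 and -0.35 when induced, with 4, 6, 20, 59, 162 and 31 families. The 10 families called higher at this stage that would also have been tested in the Control libraries alone had units of 5 bases, the class that also holds most of the low-count families. Families with 5 bases were called lower in 24.1% of cases, those with 4 bases in 27.1% and those with 6 bases in 29%.

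Genes whose products act on simple repeats were listed from general knowledge. Of 20 genes for proteins that bind repeat RNA, 0 were called higher and 1 lower when induced, where 46.8% of all 28542 genes tested were called. The 1 was Mbnl2, a splicing regulator that binds CUG repeats, at -0.85 (adjusted p = 5.1e-06, edgeR). At 24 h 6 of the 20 were called lower and 0 higher, where 52.2% of all genes were called. Among them were Mbnl1 at -1.04, Mbnl3 at -0.93, Mbnl2 at -0.82, Khsrp at -0.66 and Hnrnpl at -0.59. Their median was -0.32, against 0.08 for all genes. Tardbp, whose product binds UG repeats, was at 0.01 (adjusted p = 0.92).

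Of all genes tested, 20.7% were called lower and 26.1% higher when induced, and 18.9% lower and 33.2% higher at 24 h. Among 7 telomere-binding genes, Pot1b was called lower when induced, at -0.65, and Pot1b and Pot1a, which bind the single-stranded telomere end, were lower at 24 h, at -1.22 and -0.62. Acd, which encodes their partner TPP1, was called higher at 24 h, at 0.51 (adjusted p = 0.00013, edgeR). Among 8 mismatch repair genes, Pms2, Msh6, Pms1 and Exo1 were called lower when induced, at -1.05, -0.87, -0.56 and -0.55. At 24 h 6 were called lower, among them Pms1 at -1.30, Exo1 at -1.29, Msh6 at -1.16 and Pms2 at -0.62, while Msh3, whose product acts on larger loops, was called higher at 1.11 (adjusted p = 4.9e-10). The median of the 8 was -0.40 when induced and -0.88 at 24 h, against 0.10 and 0.08 for all genes.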

How the data were processed

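RNA counts of 36 libraries (stranded total RNA, paired-end) were used as deposited. The authors trimmed reads with cutadapt, aligned them to GRCm38 with STAR and obtained counts per gene and per repeat family with TEtranscripts, as whole numbers without normalisation. The sources used here do not state how multi-mapped reads were shared, which repeat annotation was taken or how strand was set, so how firmly a read belongs to a family cannot be judged. 1 row naming no feature (at most 0.0045% of a library) was left out.

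Families were fitted over all 36 libraries with edgeR 4.0.16 (R 4.3.3; quasi-likelihood, robust) by group and replicate number. Library sizes and TMM factors came from genes, and 1492 families, 282 of them simple repeats, passed filterByExpr. P-values were adjusted over the 1492 by the Benjamini-Hochberg method, and calls needed an adjusted p under 0.05 and an absolute log2 fold change over 0.5. Standard errors are the fold change divided by the root of F. A scaled count is a count divided by the effective gene total and multiplied by the mean of those totals. Where groups are said not to overlap, the share of all families without overlap was not counted. GC content and unit length were read from the family's name. Gene lists were fitted in the same way over 28542 genes.

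Named were the 10 most abundant families, all units of 1 or 2 bases, the telomere and disease-related trinucleotide units, and, for families that were called and averaged 100 or more scaled counts in the libraries compared, the 5 largest rises (3 qualified) and falls on induction, the 3 of each at 24 h, and their complements. Members and lists were chosen with earlier results of these data known. Alternatives were DESeq2 1.42.0, other scalings, filters, fits and limits, and leaving out each library, run for the counts of calls and for the named families. The fitting script was tested on simulated data. Repressor libraries were not analysed here. Values of some listed genes and some unit sequences are not reported here. Depth was 27376846 to 57371803 gene counts per library, and intervals or floors from counts cover counting error only.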

Additional observations from a re-analysis of the deposited data

Results flagged for a closer look

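Effects that differed between the lines by an interaction test (edgeR, adjusted over all 1492 repeat families tested) are listed here. The change on induction differed between the Activator and the Control line for 65 simple repeats. Those named in the text that changed more downwards in the Activator line were (CTAAT)n by -2.58 on the log2 scale, (CATCC)n by -1.74, (AGGTG)n by -1.49, (CACTC)n by -1.41, (CTATG)n by -1.12, (GGATG)n by -1.12, (TCCCC)n by -0.96, (GTCTG)n by -0.95, (G)n by -0.86, (C)n by -0.82, (TTCTG)n by -0.76, (GGGGA)n by -0.60 and (CACAG)n by -0.58. Those that changed more upwards were (CAGGG)n by 2.75, (GGTTG)n by 1.93, (GCATG)n by 1.74, (GTATG)n by 1.51 and (CTTTG)n by 0.79. The value of (CTATG)n no longer passed the test when any of 5 libraries was left out.

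The change from induction to 24 h after doxycycline removal differed for 32 simple repeats. Those named were (CAGGG)n by 2.05, (CTAAT)n by 1.79, (CATCC)n by 1.55, (CTGTG)n by 1.32, (AGGTG)n by 1.30, (GGATG)n by 0.99, (TTAGGG)n by 0.86, (TCCCC)n by 0.72 and (T)n by 0.53, all more upwards in the Activator line. The value of (T)n passed the test narrowly (adjusted p = 0.038, edgeR), and its call was lost when any of 7 libraries was left out. Groups of 3 were too small for a search for single outlying samples.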

How the results depend on the processing

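The counts of simple repeats called depended on several choices. Scaled to mitochondrially encoded mRNAs, they were 177 instead of 84 induced, 211 instead of 105 at 3 h, 211 instead of 85 at 6 h, 160 instead of 69 at 12 h, 213 instead of 80 for induction in the Activator line, and 14 instead of 32 from induction to 24 h; calls in the gene lists when induced went from 6 to 16. Scaled by the other repeat families, they were 166 at 3 h, 154 at 6 h, 149 at 12 h and 66 instead of 37 at 24 h. Fits of only the groups compared gave 33 induced, 21 at 24 h, 18 from induction to 24 h and 1 for induction in the Control line. A fold change limit of 1 gave 32, 46, 45, 40 and 16 at the 5 stages, 34 for induction in the Activator line, 24 instead of 65 for the difference on induction and 16 for induction to 24 h. DESeq2 size factors gave 43 for the difference on induction, and a fit of genes and repeats together 51 for induction to 24 h. The cause was not tested beyond what each construction changes. The direction of (CAAAG)n at 12 h reversed, from 0.62 to -0.045, with mitochondrial scaling.

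Leaving out 1 library at a time gave 0 to 0 calls uninduced, 74 to 95 induced, and 81 to 117, 70 to 97, 64 to 70 and 25 to 40 at the successive stages after removal, 52 to 104 and 0 to 1 for induction in the Activator and Control line, 34 to 85 for their difference, 20 to 55 for induction to 24 h, and 5 to 6 and 14 to 21 in the gene lists. The 104 and 85 were without the second uninduced Activator replicate. Over 88 values of named families and 1569 alternative values, 1418 kept direction and call, 150 kept direction only and 1 reversed.

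The labels do not say that replicate numbers pair the lines, and not every same-number correlation of deviations was over 0.1: they ran from -0.147 to 0.309, 12 of 18 were over 0.1, all of replicates 1 and 3, and 12 of 18 libraries correlated best with their own number. Without the replicate block, 84 simple repeats were called induced, 59 at 12 h and 27 at 24 h.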
